A study of Mus musculus with 20 samples.

Results

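Messenger RNA of 6 matrix metalloproteinases (Mmp8, Mmp9, Mmp12, Mmp13, Mmp14 and Mmp19) and of 3 tissue inhibitors of metalloproteinases (Timp1, Timp2 and Timp3) was examined in dural CNS-associated macrophages (dCAMs), the resident macrophages of the outermost meningeal layer. These 9 genes were picked by symbol, out of 33243 gene symbols in the count table, with earlier results of these data known. All 9 passed the filter on low counts. Ccr2CreERT2/+ R26tdT/tdT mice were used, in which tamoxifen switches on the red protein tdTomato (tdT) in cells then expressing Ccr2 and in their progeny. All 10 mice, controls included, had received the CSF-1R inhibitor BLZ945 (200 mg/kg, 7 days) to deplete macrophages, and tamoxifen (2 mg per day) on 3 days starting with the final BLZ945 dose. After 8 weeks, 5 mice received lipopolysaccharide (LPS, a bacterial cell wall component, 2.5 mg/kg) and 5 received PBS (CTL), and the cranial dura was taken 12 hours later. The CTL mice were 2 males and 3 females, and the LPS mice 3 males and 2 females. CD45int CD11b+ CD206int-high cells of each mouse gave a tdT+ and a tdT- library, and thus 4 groups of 5 libraries. The groups are called tdT- CTL, tdT+ CTL, tdT- LPS and tdT+ LPS, and libraries carry the number of their mouse (174, 175, 177, 178 and 179 for CTL, and 54, 56, 59, 60 and 61 for LPS).

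The tdT label reports Ccr2 expression around the time of tamoxifen and not at harvest. Cells that expressed Ccr2 later, or that did not recombine, carry no label, so the tdT- fraction can hold cells of more than 1 origin. All mice were depleted, so that undepleted dCAMs have no group here. In bulk libraries such as these, fewer cells of a type and less RNA per cell cannot be told apart.

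Matrix metalloproteinases are zinc enzymes that cut extracellular matrix and also release or inactivate cytokines, chemokines and receptors. Most are made as inactive proenzymes, and TIMPs block the active site of the mature enzyme. Macrophages use them to move through collagen-rich tissue such as the dura, and RNA levels say nothing of how much proenzyme is activated.

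Library totals ranged from 6017650 to 12208203 counts in CTL mice and from 12073566 to 18925908 in LPS mice, so that depth and treatment went together. Genes with more than 3 counts, the floor used here, numbered 7376 to 9807 in tdT- and 10390 to 11572 in tdT+ libraries of CTL mice. In LPS mice there were 11682 to 12694 of them in tdT- and 12098 to 13118 in tdT+ libraries. All 13 macrophage markers were over the floor in all 20 libraries. The summed level of 7 fibroblast markers reached from 67.8 to 5068 CPM in tdT- CTL libraries, against 201 to 465 CPM in tdT+ CTL, and that of 6 dendritic cell markers from 618 to 3329 CPM, against 51.2 to 77.1 CPM. Most of the dendritic cell sum in tdT- CTL libraries was Cd209a, with a mean of 1228 CPM, and Xcr1 and Clec9a had 0 counts there.

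Promoter sequences show how the genes that rose with LPS begin. AP-1 and ETS factors of the PEA3 group are textbook regulators of metalloproteinase genes, and C/EBP factors act on many inflammatory genes in myeloid cells. RefSeq sequences (GRCm38.p6) were matched for 7 of the 9 genes; Mmp9 and Mmp19 had none. For 4 genes that rose under LPS in both populations, the 250 bases before the transcription start are given 5′ to 3′, with matches to AP-1 (TGANTCA), PEA3 (AGGAAG) and C/EBP (TTGCNNAA) in capitals, searched on both strands, so that a PEA3 match on the opposite strand reads CTTCCT. No 2 of these matches overlap.
Mmp13 (chr9:7272264-7272513, + strand): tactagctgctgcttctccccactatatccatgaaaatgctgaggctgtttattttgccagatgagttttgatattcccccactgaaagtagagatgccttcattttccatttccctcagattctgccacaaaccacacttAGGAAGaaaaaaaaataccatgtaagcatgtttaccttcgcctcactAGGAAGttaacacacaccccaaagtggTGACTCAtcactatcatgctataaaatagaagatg
Mmp8 (chr9:7558179-7558428, + strand): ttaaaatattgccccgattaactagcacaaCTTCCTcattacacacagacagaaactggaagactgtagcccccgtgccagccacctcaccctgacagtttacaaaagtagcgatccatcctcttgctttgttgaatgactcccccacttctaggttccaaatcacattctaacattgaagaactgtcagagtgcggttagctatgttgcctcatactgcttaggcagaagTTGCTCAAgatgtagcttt
Mmp14 (chr14:54431348-54431597, + strand): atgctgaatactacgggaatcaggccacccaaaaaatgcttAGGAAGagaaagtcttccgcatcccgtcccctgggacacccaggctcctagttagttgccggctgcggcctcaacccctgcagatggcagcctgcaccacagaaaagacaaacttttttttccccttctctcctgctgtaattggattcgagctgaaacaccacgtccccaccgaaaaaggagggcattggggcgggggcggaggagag
Timp1 (chrX:20869916-20870165, + strand): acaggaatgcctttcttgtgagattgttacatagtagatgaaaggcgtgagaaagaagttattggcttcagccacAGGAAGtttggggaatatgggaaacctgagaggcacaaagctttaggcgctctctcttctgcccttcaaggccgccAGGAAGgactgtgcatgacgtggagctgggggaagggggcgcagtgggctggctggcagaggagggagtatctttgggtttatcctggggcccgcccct

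The Mmp13 sequence held 1 AP-1 match, 35 to 29 bases before the start, and 2 PEA3 matches, at 109 to 104 and at 62 to 57 bases. Mmp8 had a PEA3 match on the opposite strand at 220 to 215 bases and a C/EBP match at 19 to 12 bases. Mmp14 had a single PEA3 match at 209 to 204 bases, while Timp1 had a pair of them, at 175 to 170 and at 99 to 94 bases. Mmp12 has 2 RefSeq starts, of which the first carried a PEA3 and a C/EBP match and the second an AP-1 match. Timp3 had a PEA3 match, and Timp2 had no match to any of the 3. Over all 32851 promoters of the same length, 6.75% held the AP-1 letters, 29.5% the PEA3 letters and 9.56% the C/EBP letters. A match describes the letters only, and no binding was measured.

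Comparing LPS with CTL mice shows what systemic inflammation changed in each population, and the same 5 genes rose in both. Mmp8, Mmp13, Mmp14, Mmp19 and Timp1 passed the threshold upwards (a change of more than 1 on the log2 scale, up or down, with an adjusted p below 0.05), Timp2 passed it downwards, and Mmp9, Mmp12 and Timp3 did not pass. Of all 16632 genes tested, 7.20% were called higher and 4.27% lower in tdT- dCAMs, and 3.37% and 2.52% in tdT+ dCAMs. The median log2 fold change of the 9 genes was 3.75 in tdT- and 3.68 in tdT+ dCAMs, beside 0.0216 and 0.00844 over all genes tested. Because the 9 genes were chosen with earlier results of these data known, these values cannot show that they stand apart from other genes. Mmp8 also passed the filter on low counts only through its LPS libraries. All levels below are CPM (counts divided by the library total after TMM scaling, so that all libraries are on 1 scale). All fold changes and adjusted p-values are from edgeR's quasi-likelihood test with Benjamini-Hochberg adjustment over all genes tested, given as log2 ± SE.

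**Figure D1:**
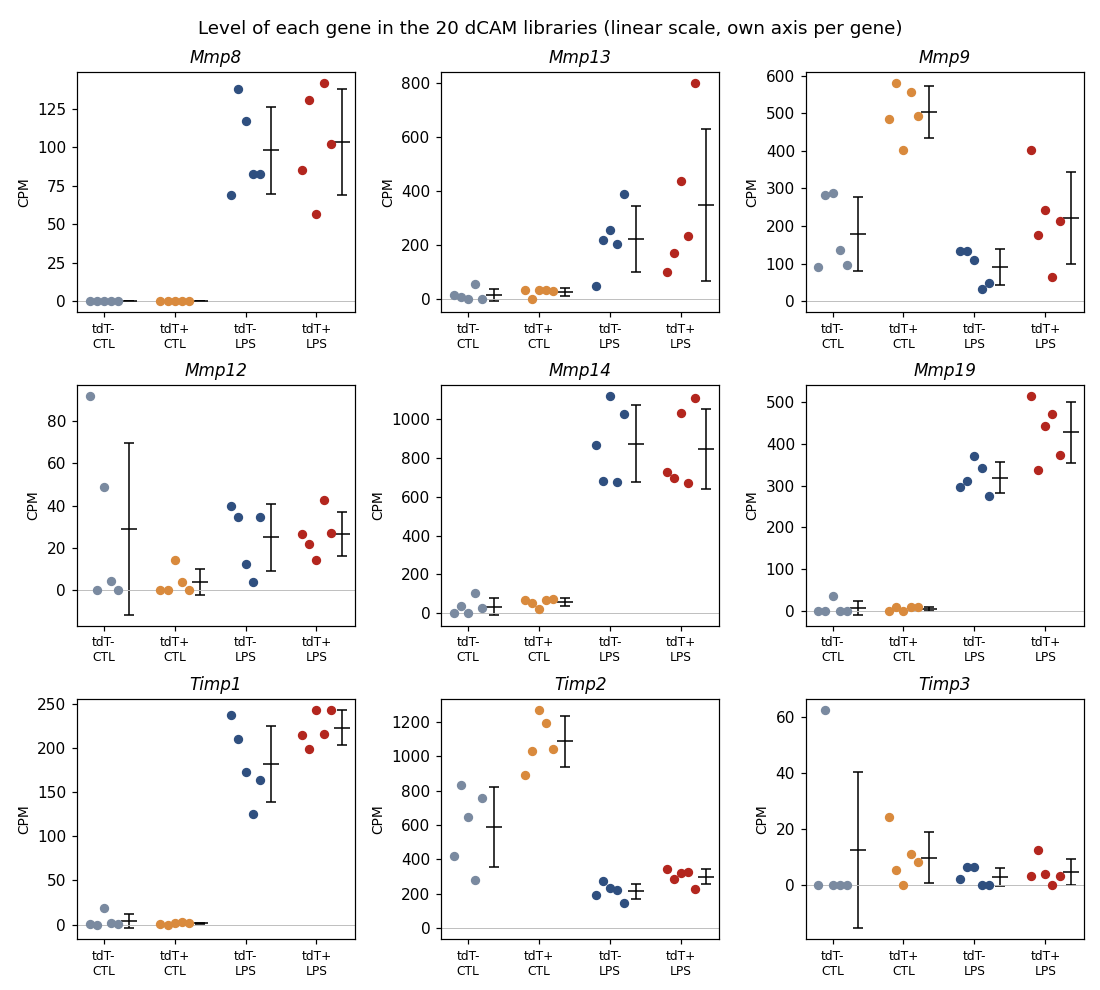
CPM of each of the 9 genes (y axis, linear, a separate axis for each gene) in the 4 groups (x axis), with 1 point per library and 5 libraries per group. The black mark and bar give the mean and SD. Mmp8, Mmp14, Mmp19 and Timp1 are far higher in all 10 LPS libraries than in any CTL library, whereas Timp2 is lower in LPS than in CTL libraries within each population.

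Collagenases cut fibrillar collagen, the main fiber of the dura. Mmp8, known as neutrophil collagenase, went from at or under the floor in every CTL library to a robust level in every LPS library. Among CTL libraries the highest Mmp8 count was 2, in tdT- mouse 177 and in tdT+ mouse 174. After LPS, Mmp8 was at 69.1 (mouse 54), 138 (56), 117 (59), 82.7 (60) and 83.0 CPM (61) in tdT- dCAMs, and at 85.4, 131, 56.8, 142 and 102 CPM in tdT+ dCAMs of the same mice. The groups did not overlap, and against a floor of 3 counts in each CTL library, Mmp8 was at least 260-fold higher in tdT- and at least 305-fold higher in tdT+ LPS libraries (adjusted p = 1.87e-07 and 1.83e-07).

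Because Mmp8 is best known from neutrophils, neutrophil markers were read in the same libraries. The summed level of the 11 markers had a median of 95.5 CPM in tdT- (from 2.09 to 181) and 4.50 CPM in tdT+ libraries (from 1.62 to 31.2) of CTL mice. In LPS mice the medians were 580 CPM in tdT- (from 179 to 786) and 409 CPM in tdT+ libraries (from 102 to 469). In tdT+ LPS libraries nearly all of this was S100a8, at 309 ± 165 CPM (SD, n = 5), while its partner S100a9 was at 0.236 ± 0.225 CPM, Camp was over the floor in all 5 libraries (2.23 ± 0.97 CPM), and Ly6g, Ltf, Elane, Mpo and Cxcr2 were at or under the floor in all 5. In tdT- LPS libraries S100a8 was at 291 ± 205 CPM, Retnlg at 216 ± 260 CPM and Padi4 at 10.3 ± 13.6 CPM. There Padi4 was over the floor in 4 of 5 libraries (up to 464 counts), S100a9 in 4 (up to 31), Camp in 3 (up to 44), Cxcr2 in 2 (up to 109), Ngp in 2 (up to 17), Ltf in 1 (10 counts) and Ly6g in 1 (22 counts), and Elane and Mpo had 0 counts in all 5. The median of the summed marker level was thus higher in LPS mice, as was Mmp8 (103 ± 34.3 CPM in tdT+ LPS). By library, the sums were 786, 580, 372, 179 and 696 CPM in tdT- LPS (mice 54, 56, 59, 60 and 61). In tdT+ LPS they were 169, 409, 412, 102 and 469 CPM. The highest tdT- sum (mouse 54) came with the lowest tdT- LPS level of Mmp8 (69.1 CPM). The lowest tdT+ sum (mouse 60) came with the highest tdT+ level of Mmp8 (142 CPM). The part of these markers in the Mmp8 values was not tested.

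Mmp13, collagenase-3, varied most among LPS libraries of the genes that rose. It was at 16.7, 9.77, 0, 55.9 and 0.916 CPM in tdT- CTL (mice 174, 175, 177, 178 and 179) and at 48.5, 220, 258, 205 and 388 CPM in tdT- LPS (mice 54, 56, 59, 60 and 61). The groups touched, since mouse 178 was above mouse 54. In tdT+ CTL it was at 34.1, 2.65, 34.8, 34.4 and 29.8 CPM and in tdT+ LPS at 100, 171, 437, 234 and 800 CPM, without overlap. The log2 fold change was 3.75 ± 1.05 in tdT- (adjusted p = 0.0215) and 3.68 ± 1.05 in tdT+ dCAMs (adjusted p = 0.0358). With mouse as a replicate block (limma-voom), Mmp13 no longer passed in either population (log2 fold changes of 5.68 and 3.93, adjusted p = 0.0591 and 0.165). It also dropped out in tdT- dCAMs when mouse 59 (adjusted p = 0.0505) or 61 (0.0554) was left out, and in tdT+ dCAMs without mouse 174 (0.0655), 175 (0.0846), 56 (0.0593), 59 (0.0864), 60 (0.0634) or 61 (0.128).

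Mmp14, also called MT1-MMP, is anchored in the cell membrane, cuts collagen at the cell surface and activates proMMP2 together with Timp2. By its mean it was the most abundant of the 6 metalloproteinases after LPS, both in CPM and per kilobase. In tdT- dCAMs it was at 0.152, 40.4, 4.54, 103 and 28.1 CPM in the CTL mice and at 862, 682, 1115, 675 and 1023 CPM in the LPS mice. In tdT+ dCAMs the CTL libraries held 67.0, 53.1, 24.1, 67.0 and 73.6 CPM and the LPS libraries 727, 695, 1027, 671 and 1106 CPM. In both populations the lowest LPS library was above the highest CTL library, with log2 fold changes of 4.62 ± 0.82 in tdT- (adjusted p = 0.000609) and 3.89 ± 0.80 in tdT+ dCAMs (adjusted p = 0.00289).

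Mmp19, a secreted enzyme that cleaves basement membrane components, was barely detected without LPS. In tdT- CTL, mouse 177 held 298 counts (36.6 CPM), while the other 4 libraries had 0 counts. In tdT+ CTL it was at 0, 8.70, 0.576, 8.91 and 9.58 CPM. After LPS it stood at 297, 311, 370, 342 and 275 CPM in tdT- and at 514, 337, 442, 472 and 372 CPM in tdT+ dCAMs, with no overlap with CTL. The log2 fold change was 5.44 ± 1.48 in tdT- (adjusted p = 0.0182) and 6.25 ± 1.54 in tdT+ dCAMs (adjusted p = 0.0138). Without mouse 177 the fitted value in tdT- dCAMs was 14.9, which is set by the zeros that remain, and when only the 10 tdT- libraries were fitted Mmp19 missed the threshold (adjusted p = 0.119). Mmp19 shares 789 exon bases with Tmem198b on the opposite strand (GRCm38, GENCODE M21), and reads there cannot be told apart without strand. Tmem198b reached at most 1 count in tdT- CTL libraries and ranged from 2.65 to 18.0 CPM in tdT+ CTL, while its LPS levels, up to 35.7 CPM in tdT- and up to 38.9 CPM in tdT+ dCAMs, were all below those of Mmp19.

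Mmp9, or gelatinase B, cuts denatured collagen and basement membrane collagen and was the leading metalloproteinase in CTL mice. Unlike the collagenases it did not pass the threshold with LPS in either population. In tdT- dCAMs it was at 89.7, 284, 287, 136 and 95.8 CPM in CTL and at 133, 132, 111, 32.9 and 48.6 CPM in LPS libraries, and these overlapped. In tdT+ dCAMs the CTL libraries held 484, 581, 403, 556 and 492 CPM and the LPS libraries 403, 176, 243, 65.0 and 213 CPM, with mouse 54 (403.5 CPM) just above the lowest CTL library (403.0 CPM). The log2 fold change was -0.96 ± 0.45 in tdT- (adjusted p = 0.150) and -1.19 ± 0.45 in tdT+ dCAMs (adjusted p = 0.135). In tdT+ dCAMs Mmp9 passed with mouse as a replicate block (limma-voom, log2 fold change -1.37, adjusted p = 0.00411) and when only the 10 tdT+ libraries were fitted (-1.19, adjusted p = 0.0298).

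Mmp12, macrophage elastase, was uneven among CTL libraries. A pair of tdT- CTL libraries carried most of it (91.6 CPM in mouse 174 and 48.9 CPM in mouse 177), the other 3 being at 0.110 (mouse 175), 4.52 (178) and 0 CPM (179). In tdT+ CTL it was at 0 in mice 174 and 175, at 14.3 in 177, 3.88 in 178 and 0.0767 CPM in 179. After LPS every library held it, at 39.8, 34.5, 12.5, 3.85 and 34.4 CPM in tdT- and at 26.7, 21.6, 14.2, 42.5 and 27.1 CPM in tdT+ dCAMs. The log2 fold change was -0.21 ± 1.46 in tdT- (adjusted p = 0.960) and 2.85 ± 1.57 in tdT+ dCAMs (adjusted p = 0.341). The tdT+ value passed with mouse as a replicate block (limma-voom, 5.70, adjusted p = 0.0168), although the lowest tdT+ LPS library (14.2 CPM) was just under the highest tdT+ CTL library (14.3 CPM). In tdT- dCAMs the direction turned when mouse 174 or 177 was left out, as well as without LPS mouse 60. The summed dendritic cell markers were also highest in the tdT- CTL libraries of mice 174 (3329 CPM) and 177 (1230 CPM). Mouse 178 was close to mouse 177 with 1124 CPM of markers, but had Mmp12 at 4.52 CPM. Mouse 179 had 793 CPM of markers with Mmp12 at 0, and mouse 175 had 618 CPM with Mmp12 at 0.110 CPM. By group mean, Cd209a made up most of the sum in tdT- CTL. The part of dendritic cells in the Mmp12 values was not tested.

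Inhibitors moved in opposite directions. Timp1, an inducible and secreted inhibitor that binds proMMP9, rose in both populations. In tdT- dCAMs it was at 0.152, 0, 18.3, 1.24 and 0.131 CPM in CTL and at 238, 210, 173, 125 and 164 CPM in LPS libraries. In tdT+ dCAMs it was at 0.811, 0, 1.73, 2.41 and 1.84 CPM in CTL and at 215, 199, 244, 217 and 244 CPM in LPS libraries. No CTL library came near an LPS library, and the log2 fold change was 5.52 ± 1.17 in tdT- (adjusted p = 0.00290) and 7.34 ± 1.28 in tdT+ dCAMs (adjusted p = 0.000568).

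Timp2, the constitutive inhibitor that also helps Mmp14 to activate proMMP2, was the most abundant of the 9 in CTL mice and fell with LPS. In tdT- dCAMs it went from 420, 832, 648, 280 and 758 CPM in CTL to 194, 272, 231, 221 and 149 CPM in LPS libraries. In tdT+ dCAMs it went from 893, 1030, 1270, 1196 and 1045 CPM to 341, 286, 319, 329 and 226 CPM. The highest LPS library stayed below the lowest CTL library in both populations. The log2 fold change was -1.46 ± 0.24 in tdT- (adjusted p = 0.000315) and -1.86 ± 0.25 in tdT+ dCAMs (adjusted p = 2.73e-05), the smallest SE among the 9 genes. Over the same comparison the summed level of the 13 macrophage markers had a lower median in LPS mice. It went from 21962 to 12441 CPM in tdT- and from 29928 to 15570 CPM in tdT+ dCAMs. Most of this sum was C1qa, C1qb, C1qc and Csf1r, whose means fell in both populations. Means of Itgam, Fcgr1 and Mertk, on the same list, rose in both. Itgam went from 148 to 942 CPM in tdT- and from 190 to 1062 CPM in tdT+ dCAMs. The part of the summed level in the Timp2 change was not tested.

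Timp3, which binds to matrix and also inhibits ADAM17, was low and scattered. A single tdT- CTL library (mouse 175) had 569 counts or 62.5 CPM, the other 4 having at most 1 count. Its highest value was 24.2 CPM among tdT+ CTL, 6.27 CPM among tdT- LPS and 12.5 CPM among tdT+ LPS libraries, and each of these groups held at least 1 library with 0 counts. It did not pass in tdT- (log2 fold change -2.08 ± 1.99, adjusted p = 0.516) or tdT+ dCAMs (-1.08 ± 1.94, adjusted p = 0.886), and without mouse 175 the value in tdT- dCAMs turned to 6.21. The fibroblast markers of that library summed to 1129 CPM, the second highest value of the tdT- CTL group. The highest, 5068 CPM, was in mouse 179, whose tdT- library had 0 Timp3 counts. The part of these markers in the Timp3 count was not tested. Timp3 shares 1733 exon bases with Syn3 on the opposite strand, which had at most 5 counts in any library.

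**Figure D2:**
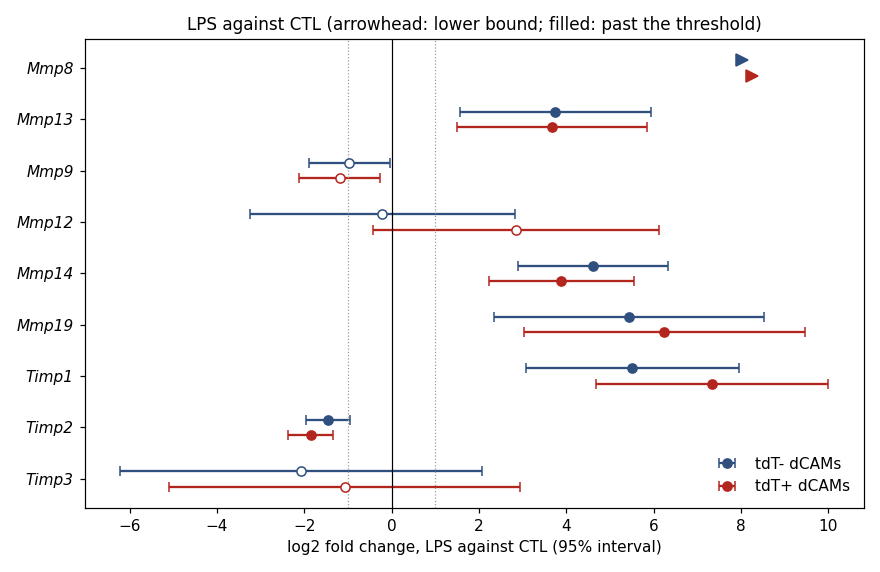
Log2 fold change of LPS against CTL (x axis) for the 9 genes (y axis) in tdT- (blue) and tdT+ (red) dCAMs, with 95% intervals, from edgeR. Filled points passed the threshold, open points did not, and arrowheads for Mmp8 mark lower bounds against the floor. In both populations the intervals of Mmp13, Mmp14, Mmp19 and Timp1 lie above 0 and that of Timp2 below 0.

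Counting groups without overlap in the same libraries gave a similar picture, with the same limit from how the 9 genes were chosen. In tdT- dCAMs, 5 of the 9 genes (Mmp8, Mmp14, Mmp19, Timp1 and Timp2) did not overlap between LPS and CTL libraries, against 12.6% of all genes tested. In tdT+ dCAMs these 5 and Mmp13 did not overlap, against 17.8% of all genes tested.

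The LPS effects of the populations were then compared with each other. For the difference of the LPS effects, 0 of the 9 genes passed the threshold in edgeR, 0 had an unadjusted p under 0.05, and DESeq2 likewise called 0, against 1.26% of all genes called by edgeR. The precision was limited for most genes. For Timp2 the difference (tdT+ minus tdT-) was -0.39 with a 95% interval from -1.10 to 0.31, for Mmp9 -0.23 from -1.53 to 1.07, and for Mmp14 -0.73 from -2.82 to 1.36. For Timp1 it was 1.82 from -1.09 to 4.74, and for Mmp12 3.07 from -1.34 to 7.47. Leaving out mouse 177, whose tdT- library held all tdT- CTL counts of Mmp19, made Mmp19 pass (-8.90), and those zeros set its size.

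To ask whether labelled dCAMs differ from unlabelled ones, tdT+ and tdT- libraries of the same mice were compared. The tdT- fraction can also hold cells with a Ccr2-expressing precursor, so the comparison does not separate dCAMs by origin. Mean Ccr2 RNA at harvest was 615 CPM in tdT- and 277 CPM in tdT+ libraries of CTL mice. In LPS mice it was 70.8 CPM in tdT- and 15.6 CPM in tdT+ libraries. Mmp9 and Timp2 were higher in the tdT+ library in all 10 mice. In CTL mice the tdT- and tdT+ values of Mmp9 were 89.7 and 484 CPM in mouse 174, 284 and 581 in 175, 287 and 403 in 177, 136 and 556 in 178, and 95.8 and 492 in 179. In LPS mice they were 133 and 403 CPM in mouse 54, 132 and 176 in 56, 111 and 243 in 59, 32.9 and 65.0 in 60, and 48.6 and 213 in 61. Within CTL mice no tdT- library reached the lowest tdT+ library, whereas in LPS mice the groups overlapped across mice. The summed level of the macrophage markers was also higher in the tdT+ library in all 10 mice, from 29101 to 33447 against 14368 to 26073 CPM in CTL mice and from 13379 to 18875 against 11179.5 to 15739 CPM in LPS mice. That of the dendritic cell markers was lower in the tdT+ library in all 10 mice, in LPS mice from 11.4 to 52.6 against 262 to 638 CPM. In tdT- LPS libraries most of this sum was Ccr7, with a mean of 401 CPM, against 7.21 CPM in tdT+ LPS. Flt3 and Zbtb46 had means of 8.44 and 7.99 CPM in tdT- LPS, against 0.0418 and 3.08 CPM in tdT+ LPS. Xcr1 was at or under the floor in both groups. The part of these markers in the population differences was not tested.

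By edgeR, 0 of the 9 genes passed the threshold in CTL mice and 0 in LPS mice, against 4.28% and 0.0301% of all genes. At an unadjusted p under 0.05 there were 2 in CTL mice (Mmp9 and Timp2) and 1 in LPS mice (Mmp9), and DESeq2 called 1 in CTL mice (Mmp9) and 0 in LPS mice. The log2 fold change of Mmp9 (tdT+ against tdT-) was 1.50 ± 0.45 in CTL mice (adjusted p = 0.0613) and 1.27 ± 0.45 in LPS mice (adjusted p = 0.913). With mouse as a replicate block, Mmp9 passed in CTL mice, with 1.68 (adjusted p = 0.0221) by edgeR with mouse terms and 1.62 (adjusted p = 0.0153) by limma-voom. It also passed there without mouse 175 (1.78, adjusted p = 0.0401) or mouse 60 (1.50, adjusted p = 0.0255). Timp2 differed by 0.89 ± 0.24 in CTL mice, with an adjusted p of 0.0372 but a change below the threshold of 1, and by 0.49 ± 0.24 in LPS mice (adjusted p = 0.919). Its change passed 1 without mouse 175 (1.16, adjusted p = 0.0133) or mouse 179 (1.01, adjusted p = 0.0351). Mmp19 passed without mouse 177 (9.32) and Timp3 without mouse 175 (8.07), in each case with all remaining tdT- CTL libraries at or under the floor.

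A contrast averaged over CTL and LPS mice was added after this pattern had been seen. In it, Mmp9 was higher in tdT+ dCAMs by 1.38 ± 0.32 (adjusted p = 0.0200), the only one of the 9 genes past the threshold, against 2.04% of all genes. Mmp9 dropped out of it without mouse 54 (log2 fold change 1.34, adjusted p = 0.0575), 59 (1.40, adjusted p = 0.0598) or 61 (1.31, adjusted p = 0.0711), with a difference of about the same size, and Mmp19 passed in it without mouse 177. Timp2 was higher by 0.69 ± 0.17 (adjusted p = 0.0312), again below a change of 1. The same sign in all 5 mice was seen for 9.46% of all genes in CTL mice and for 9.90% in LPS mice, and the same sign in all 10 mice for 1.51%.

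Among the other genes, Mmp19 was higher in the tdT+ library of all 5 LPS mice (log2 fold change 0.42, 95% interval from -2.13 to 2.97). Mmp12 was lower in tdT+ in 4 of 5 CTL mice (-2.99, from -6.27 to 0.30, adjusted p = 0.262). Mmp14 differed by -0.04 in LPS mice, with an interval from -1.52 to 1.43, and Mmp8 by 0.08, from -1.18 to 1.33. The intervals of Mmp19, Mmp14 and Mmp8 reach past a 2-fold difference in either direction.

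Levels of different genes were compared per kilobase of merged exons (CPM per kb, exon lengths from GENCODE M21). In tdT- CTL libraries Timp2 came first at 151 ± 59.5 CPM per kb (SD, n = 5), followed by Mmp9 at 50.4 ± 28.0. Mmp13 (6.23 ± 8.60), Mmp14 (5.92 ± 6.96), Timp1 (4.46 ± 9.04), Mmp12 (4.01 ± 5.61), Mmp19 (2.07 ± 4.63) and Timp3 (1.54 ± 3.43) followed within their spread. In tdT+ CTL the same pair led, with Timp2 at 279 ± 38.1 and Mmp9 at 142 ± 19.7 CPM per kb, ahead of Mmp13 at 10.2 ± 5.18 and Mmp14 at 9.56 ± 3.33.

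After LPS Timp1 came first, with 205 ± 48.9 CPM per kb in tdT- and 252 ± 22.1 in tdT+ dCAMs. Mmp14 followed with 146 ± 33.2 and 142 ± 34.3 CPM per kb. Mmp19 (90.4 ± 10.6 and 121 ± 20.5) and Mmp13 (83.7 ± 45.5 and 130 ± 105) did not differ from each other beyond their spread. Timp2 was at 54.8 ± 11.8 and 77.1 ± 11.9 CPM per kb, Mmp8 at 40.4 ± 11.8 and 42.6 ± 14.2, and Mmp9 at 25.8 ± 13.4 and 62.2 ± 34.7. Of the summed CPM per kb of the 9 genes, Timp2 made up a mean of 66.2% in tdT- and 62.4% in tdT+ libraries of CTL mice, but 8.51% and 9.57% in those of LPS mice.

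Dividing the summed CPM per kb of the 6 metalloproteinases by that of the 3 inhibitors gave a median ratio of 0.410 in tdT- CTL (from 0.165 to 1.06) and 0.610 in tdT+ CTL libraries (from 0.406 to 0.690). In LPS libraries the median was 1.67 in tdT- (from 1.001 to 2.01) and 1.39 in tdT+ (from 1.27 to 2.09). The tdT- CTL library of mouse 178, at 1.06, lay above the lowest tdT- LPS library, while the tdT+ groups did not overlap. The ratio describes RNA of these 9 genes only and was not tested.

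**Figure D3:**
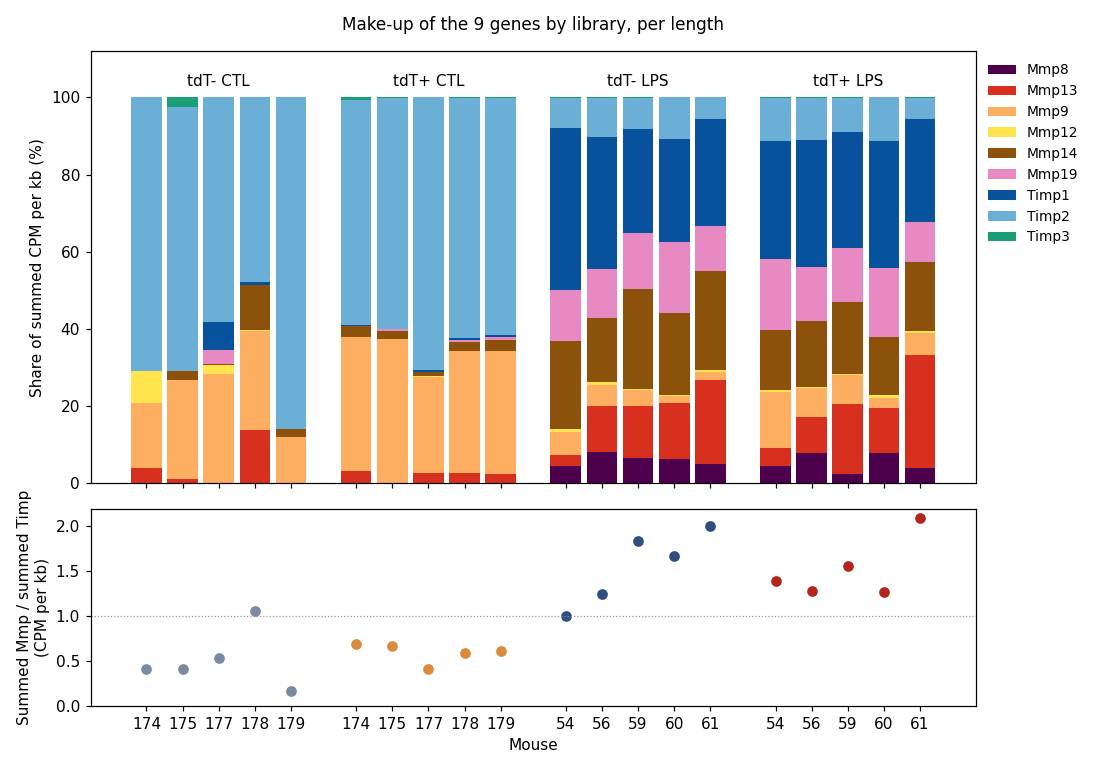
Upper panel: share of each gene in the summed CPM per kb of the 9 genes (y axis, percent) in each library (x axis, mouse number, 4 groups). Lower panel: summed metalloproteinases divided by summed inhibitors, with a dotted line at 1. Timp2 and Mmp9 fill most of each CTL bar, and Timp1, Mmp14, Mmp19 and Mmp13 most of each LPS bar.

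Other metalloproteinases were read from a list of 17, of which 11 were tested. In tdT- dCAMs 2 rose with LPS and 0 fell, and in tdT+ dCAMs 1 rose and 1 fell. Mmp3, stromelysin-1, which cleaves proteoglycans and activates other proenzymes, had at most 2 counts in any CTL library and was at 120 ± 61.6 CPM in tdT- LPS and 166 ± 121 CPM in tdT+ LPS libraries (SD, n = 5). Its adjusted p was 8.62e-07 in tdT- and 2.77e-07 in tdT+ dCAMs. Mmp25, a membrane-anchored enzyme, rose in tdT- dCAMs to 46.9 ± 20.1 CPM, from 1.46 ± 2.07 CPM in CTL mice (4.99 ± 1.49 on the log2 scale, adjusted p = 0.0309). In tdT+ dCAMs it went from 5.36 ± 6.69 to 28.1 ± 11.1 CPM without passing (2.38 ± 1.32 on the log2 scale, adjusted p = 0.344). Its LPS effects did not differ past the threshold between the populations (-2.61, adjusted p = 0.660). Mmp17 was at 3.62 ± 4.70 CPM in tdT+ CTL and at 0 counts in all tdT+ LPS libraries (adjusted p = 0.0428). Only 3 of 5 tdT+ CTL libraries were over the floor for it, with a group median of 1.47 CPM, and the groups overlapped at 0. Mmp2, the enzyme that Mmp14 and Timp2 activate, was at 10.8 ± 7.24 CPM among tdT- and 14.6 ± 5.42 CPM among tdT+ libraries after LPS, reached 142 CPM in 1 tdT- CTL library (mouse 179), and did not pass in either LPS contrast. The fibroblast markers of that library summed to 5068 CPM, the highest value of all libraries, and their part in its Mmp2 value was not tested.

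Timp4 had 0 counts in all libraries. Of the 5 other genes tested in the list of inhibitors and clearance receptors, 0 passed in either LPS contrast by edgeR. At an unadjusted p under 0.05 there were 2 in tdT- (Reck and Spock1) and 0 in tdT+ dCAMs, and DESeq2 called 1 and 0. Of 9 genes reported from the list of plasminogen activators, convertases and serpins, 4 rose with LPS in tdT- and 2 in tdT+ dCAMs. Plaur, the urokinase receptor, rose by 2.15 ± 0.50 in tdT- (adjusted p = 0.00603) and by 3.71 ± 0.53 in tdT+ dCAMs (adjusted p = 6.83e-05). Serpinb2, an inhibitor of plasminogen activators, was at 82.0 ± 47.0 and 55.5 ± 31.7 CPM in tdT- and tdT+ LPS libraries, beside at most 9 counts in a tdT- CTL and 0 in all tdT+ CTL libraries (adjusted p = 0.000233 and 6.83e-05). Plat and Furin rose as well in tdT- dCAMs. Furin, a convertase that trims proMMP14, was at 58.6 ± 51.0 CPM in CTL and 297 ± 70.4 CPM in LPS mice (2.34 ± 0.69 on the log2 scale, adjusted p = 0.0294). Plat, tissue plasminogen activator, was also higher in tdT+ than in tdT- dCAMs of CTL mice (5.22 ± 5.26 against 0.0452 ± 0.101 CPM, adjusted p = 0.0453).

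Genes whose products bind or induce metalloproteinases were led by Lcn2, whose protein forms a complex with MMP9. Lcn2 went from 0.603 ± 0.757 to 5791 ± 1278 CPM in tdT- and from 0.660 ± 1.19 to 6643 ± 1363 CPM in tdT+ dCAMs (adjusted p = 3.85e-08 and 2.89e-08). Of the 7 genes of that list, 2 rose in tdT- dCAMs (Lcn2 and Thbs1) and 3 in tdT+ dCAMs (these and Cd44, an anchor for MMP9 and MMP14 at the cell surface, by 3.03 ± 0.51, adjusted p = 0.000365). In the list of 14 ADAM, ADAMTS and ADAMTS-like genes, 3 rose and 1 fell in tdT- dCAMs and 3 rose and 2 fell in tdT+ dCAMs. Adamts10 fell in both, by 4.03 on the log2 scale in tdT- (adjusted p = 0.000392) and by 2.77 in tdT+ dCAMs (adjusted p = 0.00960). Adamtsl4, an ADAMTS-like protein without a protease domain, rose in both, from 2.89 ± 6.40 to 267 ± 41.1 CPM and from 8.44 ± 6.06 to 289 ± 50.8 CPM (adjusted p = 0.00195 and 0.0114).

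Likeness of pattern was measured by Pearson's r of log2 CPM over the 20 libraries, which share the LPS contrast and the difference in depth, so that it is a description only. Mmp8 was most like Saa1 (0.994), an acute-phase protein, and Il1r1 (0.993). Mmp14 was most like Surf4 (0.981) and Tmem119 (0.971). Timp1 was closest to Plin2 (0.962) and Vcan (0.957), and Mmp19 to Ms4a4a (0.948) and Arcn1 (0.938). Mmp13 paired with Milr1 (0.911) and Aplp2 (0.904), and Mmp12 with Ddx21 (0.909) and Ptgs2 (0.850), which encodes cyclooxygenase-2. Timp2 was most like Csf1r (0.954), the receptor that BLZ945 inhibits, and Stab1 (0.943). Mmp9 (Igfbp5, 0.840, and Psd3, 0.831) and Timp3 (Ltbp3, 0.771, and Fgfr2, 0.759) had the weakest matches.

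On GRCm38 (GENCODE M21), Mmp13, Mmp12 and Mmp8 lie on chromosome 9 in 1 metalloproteinase cluster on the plus strand, at chr9:7272514-7283331, chr9:7344381-7369499 and chr9:7558456-7568485. Mmp9 is at chr2:164940780-164955850, Mmp14 at chr14:54431612-54445364 and Mmp19 at chr10:128790910-128800824. Timp1 is at chrX:20870166-20874735, within the bounds of Syn1 on the other strand with 0 shared exon bases, Timp2 at chr11:118301069-118355740 and Timp3 at chr10:86300372-86349506. Mmp12 shares 157 exon bases with Mmp1b on the opposite strand, which had at most 8 counts in any library.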

How the data were processed

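RNA of sorted dCAMs was sequenced as 20 libraries from 10 mice. The authors aligned reads with STAR and deposited raw counts per gene from featureCounts (versions 2.7.11a and 2.0.6 in the submitters' processing notes). The sources used here name more than 1 genome build, so coordinates and exon lengths come from GRCm38 (GENCODE M21) and serve only to locate and scale genes. The low-input PCR kit carried no molecular identifiers, so that floors and counting limits cover counting error only, and whether strand was used in counting is not given in the sources used here.

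Labels gave the groups. Genes whose counts summed to at least 10 were kept (16632 of 33243, with 11198 genes without a count), scaled by TMM and fitted jointly with edgeR 4.0.16 (R 4.3.3), with 1 mean per group. Contrasts were LPS against CTL in each population, tdT+ against tdT- in each treatment, their difference, and, added after the data had been seen, the population contrast averaged over treatments. The threshold was a Benjamini-Hochberg adjusted p under 0.05 with an absolute log2 fold change over 1. A library's floor was 3 counts. The script was tested on simulated data with less spread between libraries than here. Only well-expressed genes were changed in them, so this check does not cover genes near the floor or the spread of these data. CPM per kb used merged exon lengths.

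Both libraries of a mouse came from 1 animal, so the mouse number pairs them. The correlation across genes of their deviations from the group means was 0.000914 to 0.0333 in CTL and 0.0471 to 0.119 in LPS mice. Alternatives were RLE scaling, DESeq2 1.42.0, other filters, fits of only the groups compared, sex as a term, mouse as a replicate block (limma 3.58.1, and edgeR with mouse terms), each mouse left out, and, added later, counts thinned to 1 depth.

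The 9 genes, the further lists and the motifs were chosen with earlier results of these data known. Named genes are the 9, list genes past the threshold (further list genes and neighbours were named after their values were seen), and, for each of the 9, the 2 genes with the highest Pearson r among those averaging at least 1 log2 CPM. One gene of these lists is not reported here.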

Additional observations from a re-analysis of the deposited data

Results flagged for a closer look

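Libraries far from the other 4 of their group were looked for by the gap to the nearest library relative to the range, for each gene and group in which a library passed the floor. Of 34 groups so tested, 5 held such a library. The cut-off is set to flag about 1 in 20 groups when values are normally distributed. Some of these groups are mostly zeros, and groups share libraries, so that rate cannot be set beside the count found.

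In tdT- CTL libraries, mouse 177 stood apart for Mmp19 (36.6 CPM, the other 4 at 0) and for Timp1 (18.3 CPM, the other 4 from 0 to 1.24), and mouse 175 for Timp3 (62.5 CPM, the other 4 from 0 to 0.123). In tdT+ CTL libraries, mouse 177 was high for Mmp12 (14.3 CPM, the other 4 from 0 to 3.88) and mouse 175 low for Mmp13 (2.65 CPM, the other 4 from 29.8 to 34.8). All 5 were CTL libraries, whose totals are lower.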

How the results depend on the processing

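Of the 5 genes called higher under LPS, Mmp8, Mmp14 and Timp1 passed in both populations under every alternative run, as did Timp2, called lower. Mmp13 lost its call in tdT- dCAMs with only the 10 libraries compared (3.75) and with mouse as a replicate block by limma-voom (5.68), and in tdT+ dCAMs with sex as a term (3.20) and with that block (3.93). Mmp19 lost its call in tdT- dCAMs with only those 10 libraries, and DESeq2 gave it no adjusted p there or in tdT+ dCAMs. Over the alternatives, 4 to 6 of the 9 genes passed in tdT- and 5 to 7 in tdT+ dCAMs. The causes of these changes were not tested, apart from fewer samples where mice or groups were left out.

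In CTL mice the population contrast called 1 gene (Mmp9) with filterByExpr, with DESeq2 and with both replicate blocks, and 0 to 3 with a mouse left out. Without a mouse, the averaged contrast called 0 to 2 and the difference of the LPS effects 0 to 1. In LPS mice 0 were called under each alternative.

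For values that had not passed, the direction turned as follows, with the cause not tested. Under the replicate block by limma-voom, the LPS effect in tdT- dCAMs was 2.69 for Mmp12 and 1.19 for Timp3, the CTL population contrast 3.23 for Mmp19, 0.56 for Timp1 and 3.64 for Timp3, and the difference of the LPS effects -2.84, -0.24 and -2.19 for these 3. With mouse terms in edgeR (also a replicate block) the CTL contrast was 5.09, 0.73 and 5.32 and the difference -4.68, -0.41 and -4.12 for the same 3. Sex as a term turned the CTL contrast for Mmp19 (0.34) and Timp3 (0.43), the difference for Timp3 (-0.028) and the LPS population contrast for Mmp12 (-0.10). Thinning turned Mmp13 (0.017) and Mmp8 (0.13) in the difference and Mmp8 (-0.044) in the CTL contrast.

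With a mouse left out, the LPS effect in tdT- dCAMs ranged from -0.54 to 0.89 for Mmp12 and from -2.55 to 6.21 for Timp3. The CTL population contrast ranged from -0.99 to 9.32 for Mmp19, -1.04 to 3.13 for Mmp8, -1.97 to 1.68 for Timp1 and -1.35 to 8.07 for Timp3, and the LPS population contrast from -0.43 to 0.32 for Mmp12, -0.10 to 0.018 for Mmp14 and -0.12 to 0.30 for Mmp8. The difference ranged from -1.30 to 0.37 for Mmp13, -8.90 to 1.41 for Mmp19, -3.06 to 1.11 for Mmp8, -0.54 to 0.013 for Mmp9, -1.39 to 2.27 for Timp1 and -7.44 to 1.99 for Timp3.

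Over all genes, calls moved by more than 1.5 times in several settings. LPS in tdT- dCAMs called 1907 genes, but 891 with the 10 libraries alone and 4523 with the limma-voom block, and LPS in tdT+ dCAMs called 979, but 2262, 1571 and, with DESeq2, 1545. The CTL population contrast called 712, but 7 with the 10 libraries alone, 1644 with DESeq2, 2245 with the limma-voom block and 1352 without mouse 175. The LPS population contrast called 5, but 39, 60 and 22 in the first 3 of these settings, 3 with mouse terms or sex, and 1 to 6 without a mouse. The difference called 209, but 744 with DESeq2, 619 and 83 with the blocks and 63 to 640 without a mouse, and the averaged contrast 339, but 889, 1052 and 179, and 154 to 852. A mean floor of 0.377 CPM in tdT- CTL libraries limits statements on lower levels.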
